A study of Mus musculus with 10 samples.

Results

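The genes of the bone morphogenetic protein (BMP) ligands Bmp2, Bmp3, Bmp4, Bmp5, Bmp6, Bmp7 and Bmp10 and of the SMAD proteins Smad1, Smad6 and Smad7 were followed in chromatin accessibility data from atrial cardiomyocytes. A listed region belonged to a member when it overlapped the gene's annotated span, or when it lay outside every protein-coding span and had the member as its nearest gene within 100 kb. By this rule 19 of 10010 listed regions belonged to 7 of the 10 genes, and 5698 of 21900 protein-coding genes in all had a listed region. Bmp2, Bmp4 and Bmp5 had none.

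Accessibility was measured by ATAC-seq, in which a transposase inserts sequencing adapters into open chromatin, in nuclei sorted for PCM1, a centriolar satellite protein that marks cardiomyocyte nuclei. The Tbx5G125R group comprised 4 adult mice, designated Tbx5G125R/+ in the design, heterozygous for the G125R substitution in Tbx5, a T-box transcription factor of the atria. The Control group comprised 4 adult mice, and their genotype is given only as Control. All were 8 to 12 weeks old, no treatment is labelled, and each contributed the left and right atrium pooled into 1 preparation. The variant was introduced into the mouse genome, so it is carried by every cell type and through development. Control animals 1 and 3 had 2 libraries each, which were summed.

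BMP ligands are secreted dimers that bring type I and type II serine/threonine kinase receptors together at the cell surface. The activated receptors phosphorylate the receptor SMADs, among them Smad1, which enter the nucleus with Smad4 and act on genes such as those of the Id family. Smad6 and Smad7 are inhibitory SMADs that are themselves induced by the pathway and restrain it. In the mouse heart, Bmp2 and Bmp4 act in the formation of valves and septa, and Bmp10 is a ligand made largely by cardiomyocytes, in the adult mainly in the right atrium.

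The table listed only regions that its authors had called as different between the genotypes, and the regions were thus chosen by the same counts, in the same animals, that are described here. All genotype differences at the members are therefore given as a description, and calls made on them are not read as a test. Listed reads summed to between 1716962 and 2414261 per Tbx5G125R animal and between 630392 (Control 2) and 2776475 (Control 3) per Control animal, and the depth of the whole libraries is unknown. Values are scaled counts, that is reads per region divided by a factor per animal, and fold changes are Tbx5G125R over Control on the log2 scale with a standard error (SE). Whether a count covered a whole region or a single 500-bp bin of it is not given in the sources consulted, so levels are compared between regions only to say which were named. In sorted nuclei pooled from 1 animal, fewer nuclei with an open site and less signal per nucleus cannot be told apart. The table cannot check the cell type either, since it holds only regions called as different. Of 6 cardiomyocyte marker genes 6 had listed regions, beside 5698 of 21900 protein-coding genes in all. So had 2 of 6 fibroblast, 2 of 5 endothelial, 2 of 2 endocardial and 1 of 4 smooth muscle and pericyte markers. The counts were 0 of 3 for leukocyte and 0 of 3 for epicardial markers. Over all listed regions 88.4% were higher in Tbx5G125R and 11.6% lower. Cardiomyocyte marker regions were higher at 28 and lower at 10, with a median log2 fold change of 0.69. All 10 endothelial (median 1.28) and all 3 fibroblast marker regions (median 1.00) were higher, as was the 1 of smooth muscle and pericytes (0.81), whereas 1 endocardial marker region was higher and 4 were lower (median -0.90). The endothelial regions lay at Kdr, apart from 1 at Pecam1 (0.55). All lower endocardial regions lay at Npr3 and all lower cardiomyocyte regions at Ryr2, so these counts rest largely on single genes. The part of other cell types in the member values was not tested.

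Promoter sequence is shown for the members whose annotated start lay in a listed region and for which a promoter was given, Bmp6 and Smad6, because the accessible interval held the whole 250 bases before their starts. Both are from RefSeq (GRCm38.p6), 5′ to 3′ on the gene's strand and ending at the base before the start: Bmp6 at chr13:38345466-38345715 (plus strand) and Smad6 at chr9:64022060-64022309 (minus strand). The start of Smad6 is here that of the promoter annotation. The gene's span reaches to 64022085, so the last bases printed for Smad6 lie inside the span. Capitals mark the T-box motif AGGTGT and the SP and KLF GC box GGGCGG on either strand, which do not overlap each other in these promoters.
Bmp6: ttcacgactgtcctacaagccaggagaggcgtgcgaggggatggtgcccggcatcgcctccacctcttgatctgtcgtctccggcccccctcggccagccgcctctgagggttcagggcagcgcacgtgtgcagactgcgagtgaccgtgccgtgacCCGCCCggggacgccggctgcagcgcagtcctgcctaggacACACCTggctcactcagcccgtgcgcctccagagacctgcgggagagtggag
Smad6: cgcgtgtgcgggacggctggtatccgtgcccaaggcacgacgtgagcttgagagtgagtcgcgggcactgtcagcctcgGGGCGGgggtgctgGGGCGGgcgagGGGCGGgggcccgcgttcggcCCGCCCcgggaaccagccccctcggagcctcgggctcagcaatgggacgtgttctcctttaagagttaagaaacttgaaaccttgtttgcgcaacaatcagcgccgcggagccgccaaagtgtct
The Bmp6 promoter held 1 T-box match, read on the opposite strand, with 46 bases between it and the start, and 1 GC box with 87 bases between it and the start. The Smad6 promoter held 4 GC boxes and no T-box match. It had 27 CpG dinucleotides and a GC content of 66.8%, and the Bmp6 promoter had 22 and 68.8%, against medians of 6 and 52.4% over 32851 promoters. A T-box match was found in 11.8% and a GC box in 32.7% of all promoters of this length. Of the 6 members with a promoter sequence (Bmp4, Bmp5, Bmp6, Bmp10, Smad1 and Smad6), 1 held a T-box match and 4 a GC box. The GATA motif AGATAAG was found in 1 of the 6 (Bmp10) and in 2.74% of all, whereas the KLF motif GGGTGTG (6.93% of all), the GC-rich SMAD motif GGCGCC (9.59%) and the MEF2 motif (0.508%) were found in none of the 6. A match is a run of letters and does not show that a factor was bound.

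Accessibility was higher in Tbx5G125R than in Control animals at 18 of the 19 regions, and lower at 1, beside Bmp10. On the scale used here, 88.4% of all 10010 listed regions were higher and 11.6% lower. On a scale that sets the typical listed region of each animal at 0 (the table scale), 15 of the 19 were higher and 4 lower. Of all listed regions 54.7% were higher on the table scale. Under TMM, edgeR's own scaling, 13 of the 19 were higher and 6 lower, and 52.3% of all listed regions were higher. The groups were free of overlap between animals at 18 of the 19 regions (92.7% of all listed regions), of which 17 were higher (84.2%) and 1 was lower (8.5%). The exception lay below Smad6. On the table scale and under TMM, 4 of the 19 regions were free of overlap. The share of all listed regions was not taken on these scales, so whether 4 is many or few cannot be said. Each statement on overlap given for a single region thus holds for the scale used here. The median log2 fold change was 0.72 over the 19 regions, with quartiles of 0.70 and 1.04, and 0.72 over all listed regions, with quartiles of 0.58 and 0.93. A difference of at least 2-fold upwards was seen at 5 of 19 regions (20.3% of all), and 11 of 19 lay above the table's median change (50% by construction). On the table scale, 3 of 19 regions were called higher (8.55% of all, edgeR) and 1 of 19 lower (12.3%). The regions had been chosen by the same counts, so these calls describe them and are no test of the members.

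**Figure D1:**
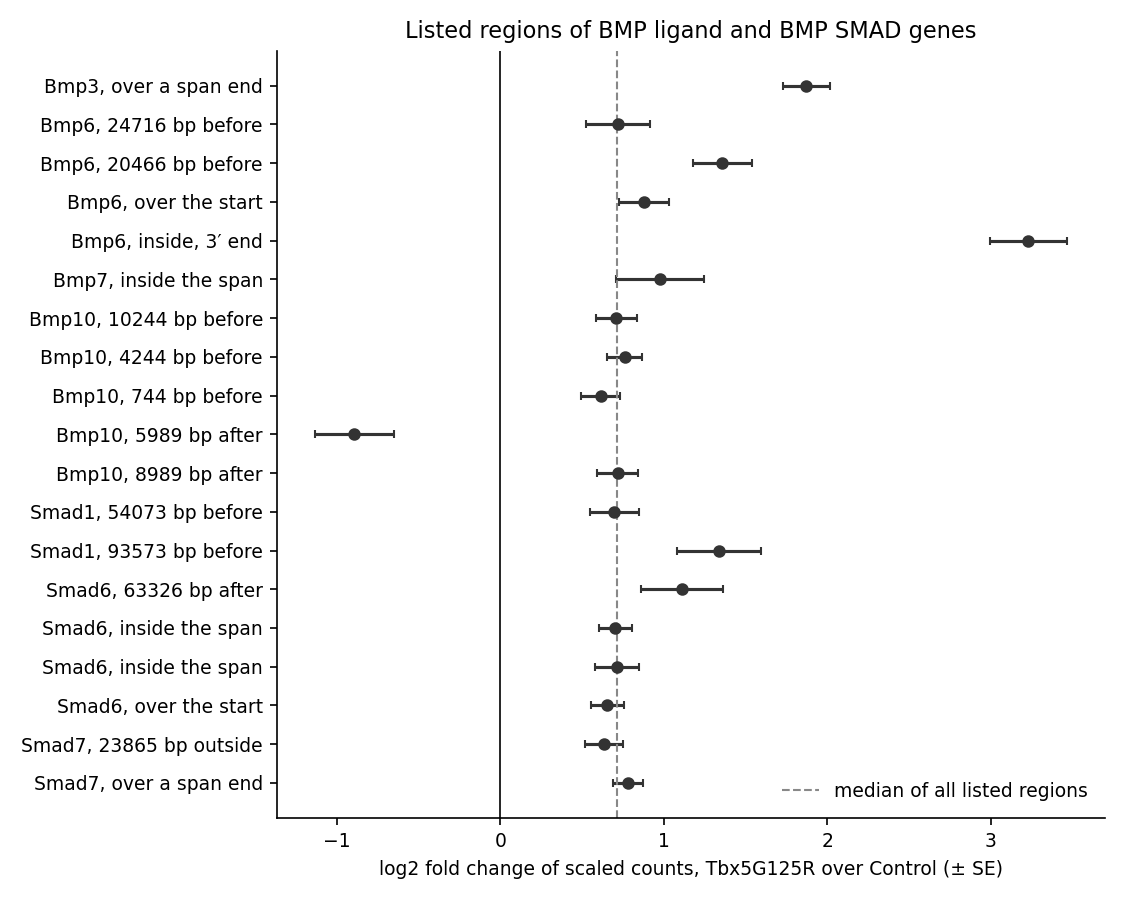
Log2 fold change of the scaled count (Tbx5G125R over Control, horizontal axis) with its SE for each of the 19 regions, named by gene and by place relative to the gene's span (before and after follow the direction of transcription, n = 4 animals a group). The dashed line is the median of all listed regions at 0.72, and the points stand on both sides of it, from -0.89 beside Bmp10 to 3.23 inside Bmp6.

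The ligand Bmp6, an osteogenic BMP that also sets hepcidin and iron balance in mice, had 4 regions, all higher in Tbx5G125R. They lay at 3 places: before the gene, over its start, and at its far end. The region at the far end (chromosome 13, 38499251 to 38500250) ended 64 bp before the end of the span, and the annotation used gives no exons. It had 124, 99.1, 132 and 141 scaled counts in Tbx5G125R animals, against 16.3, 13.9, 13.8 and 6.34 in Control animals. The lowest Tbx5G125R animal stood far above the highest Control animal, and the groups did not overlap. Means were 124 ± 18.0 in Tbx5G125R and 12.6 ± 4.31 in Control (SD, n = 4 each), a log2 fold change of 3.23 ± 0.24 (9.38-fold), which ranked 8 among 10010 regions. The log2 fold change was 2.54 on the table scale. The Control values rest on few reads, 6 in Control 2 and 5 in Control 4. Both repeated animals differed between their libraries, with 21 and 7 reads in Control 1 and 8 and 19 reads in Control 3. After scaling, these libraries stood 3.67-fold and 2.59-fold apart.

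The other Bmp6 regions differed less. Over the start (38344751 to 38345750), the region that holds the promoter shown had 159, 128, 167 and 126 scaled counts in Tbx5G125R and 78.9, 69.7, 76.0 and 88.7 in Control animals, a log2 fold change of 0.88 ± 0.15. That change was 0.19 on the table scale and 0.17 under TMM. All Tbx5G125R animals were above all Control animals. A region 20466 bp before the span (38324251 to 38325250) had a log2 fold change of 1.36 ± 0.18, with 97.7 in Tbx5G125R 3 and 146 to 166 in the other Tbx5G125R animals, against 50.5 to 60.4 in Control animals. At 24716 bp before the span (38320501 to 38321000), Tbx5G125R animals lay between 84.1 and 87.4 and Control animals between 34.8 and 67.2, a log2 fold change of 0.72 ± 0.19. That change was 0.03 on the table scale and 0.02 under TMM. Both distal regions overlapped the long noncoding RNA gene Gm47990 (38320507 to 38344123), the farther one at its low end.

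Because the regions of a gene are read in the same libraries, their ratio needs no scale between animals. For each 100 reads in its other 3 regions, the far end of Bmp6 had 30.0, 27.6, 37.3 and 39.6 reads in Tbx5G125R animals, against 8.92, 8.45, 7.58 and 3.07 reads in Control animals. The groups did not overlap in this ratio. The far end was picked as the most changed region of the locus in these same animals, so the ratio restates that difference in unscaled reads and is no separate evidence of it. The separate libraries of Control 1 had 15.2 and 3.98 reads and those of Control 3 had 4.68 and 10.3 reads per 100. All 4 libraries were below the lowest Tbx5G125R animal.

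**Figure D2:**
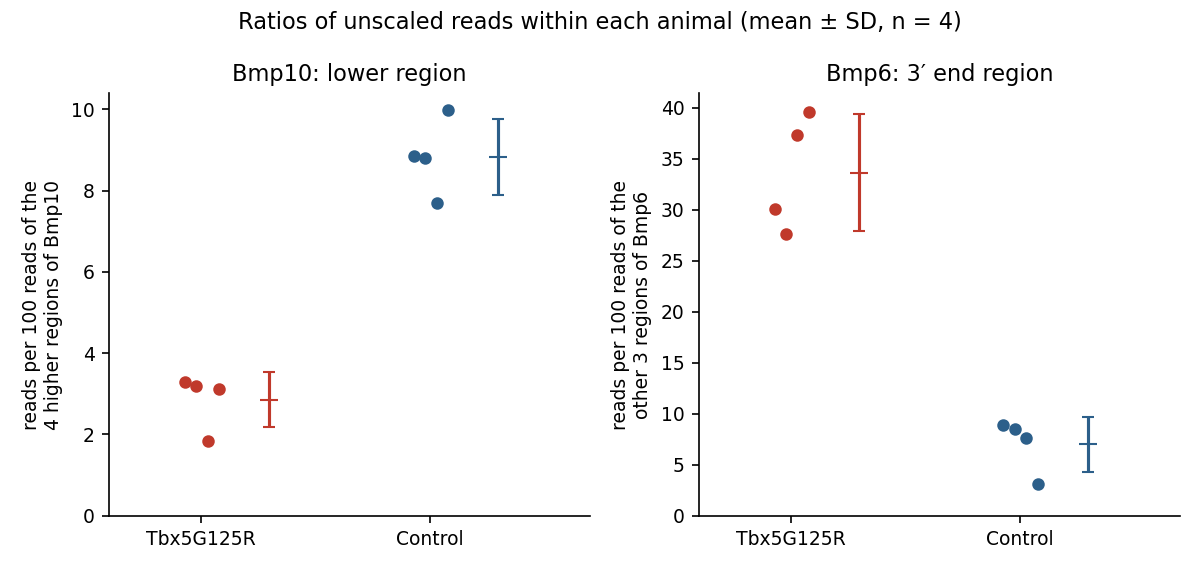
Unscaled reads within each animal, for the lower Bmp10 region per 100 reads of the 4 higher Bmp10 regions and for the Bmp6 far-end region per 100 reads of the other 3 Bmp6 regions. Points are animals and bars are mean ± SD (n = 4 a group), and in both panels the groups do not overlap, at 1.84 to 3.29 in Tbx5G125R and 7.69 to 9.98 in Control for Bmp10 and at 27.6 to 39.6 in Tbx5G125R and 3.07 to 8.92 in Control for Bmp6.

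The listed regions whose scaled counts tracked the Bmp6 far end most closely over the 8 animals lay inside Wdr6 (Pearson r = 0.997), Igfbp5 (r = 0.996) and Tm2d2 (r = 0.996). Their log2 fold changes were 0.75, 0.53 and 0.67, well under that of Bmp6. The 8 animals form 2 separated groups, and 92.7% of all listed regions keep these groups apart, so a high coefficient is reached without any likeness within a group.

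Bmp3, which encodes an atypical ligand that counteracts other BMPs, had 1 region. It covered the low end of the span (chromosome 5, 98854001 to 98856750) and also overlapped the noncoding gene Gm34563. Scaled counts were 222, 239, 253 and 279 in Tbx5G125R animals, against 72.0, 60.4, 80.1 and 48.2 in Control animals. The groups were widely separated, with means of 248 ± 24.2 in Tbx5G125R and 65.1 ± 13.9 in Control (SD, n = 4 each) and a log2 fold change of 1.87 ± 0.14 (3.66-fold). This was the second largest of the 19 differences on the scale used here and lay at percentile 98.0 of the table. The log2 fold change was 1.18 on the table scale. At 2750 bp the Bmp3 region was also the widest of the 19 regions, whose median width was 1000 bp against 750 bp in the table.

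Bmp7, a ligand with broad roles in kidney, eye and skeleton, had 1 region inside its span (chromosome 2, 172933501 to 172934250), 6071 bp from the high end and within the noncoding gene Gm40010. It had 44.7, 40.4, 49.8 and 62.8 scaled counts in Tbx5G125R, against 19.2, 25.5, 24.0 and 35.5 in Control animals. The lowest Tbx5G125R animal stood just above Control 4, the highest Control animal. The log2 fold change was 0.98 ± 0.27, the largest SE of the 19 regions, at a count of 11 to 65 reads. It was 0.29 on the table scale.

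**Figure D3:**
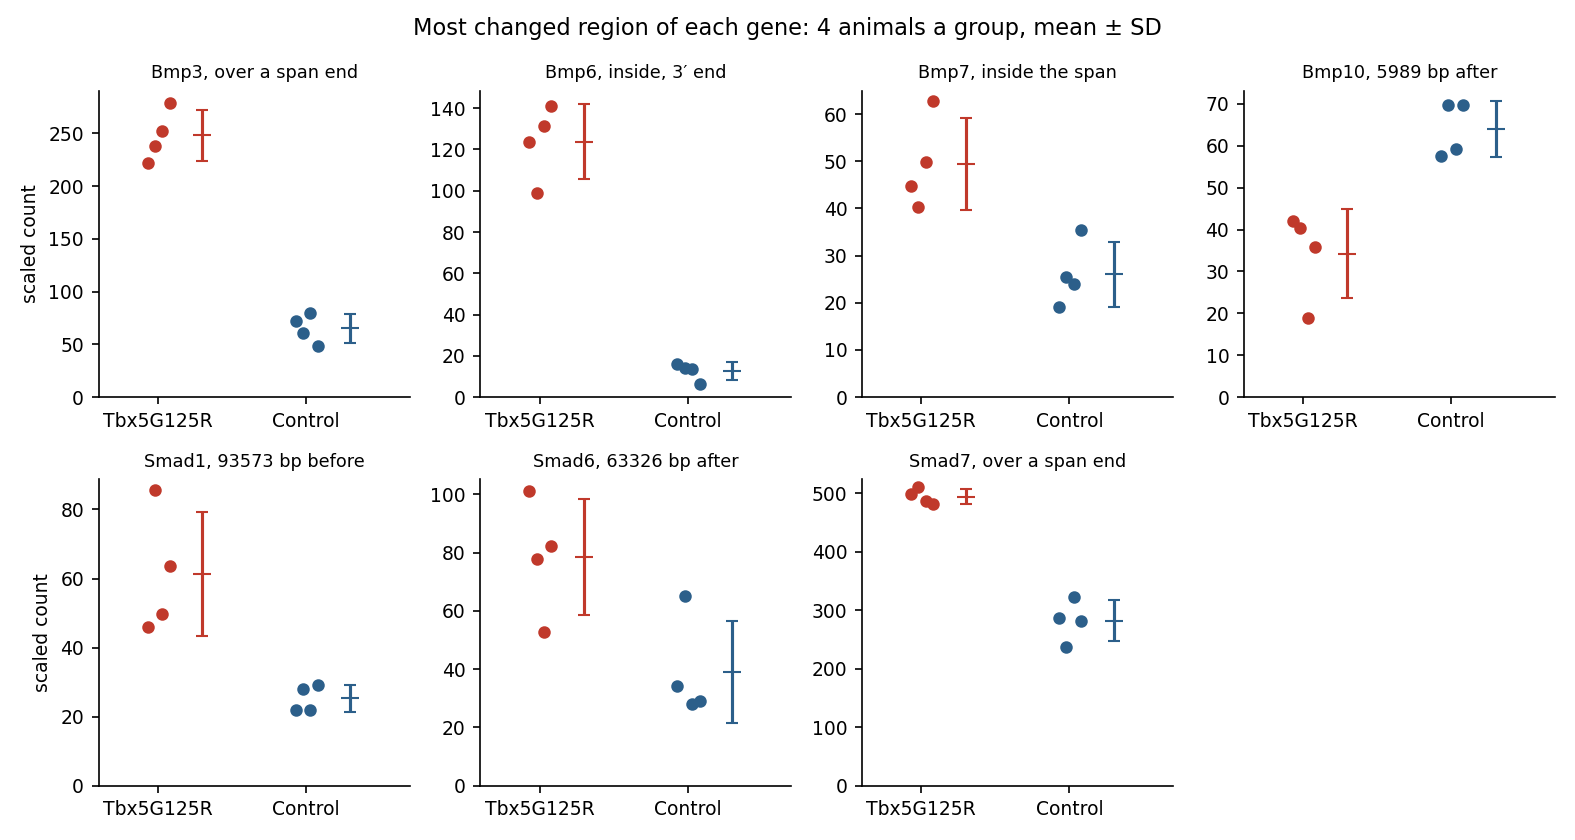
Scaled counts of each animal at the region with the largest absolute log2 fold change of each of the 7 genes (points), with mean ± SD beside them (n = 4 a group) and a separate vertical axis from 0 in each panel. The groups are apart in every panel except that of Smad6, where Control 2 at 65.0 lies above Tbx5G125R 3 at 52.6, and Bmp10 is the panel with lower values in Tbx5G125R.

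Bmp10 (chromosome 6, span 87428994 to 87434512, plus strand) had 5 regions, the most of any member, and all lay outside the span. Of these, 4 were higher in Tbx5G125R, 3 before the gene and 1 after it, and the region between the gene and the last of these was lower. Nearest the start, 744 bp before it (87427501 to 87428250), scaled counts lay between 225 and 333 in Tbx5G125R animals, against 169 to 193 in Control animals. The groups did not overlap, and the log2 fold change was 0.61 ± 0.12, the smallest of the higher regions. On the table scale this region had -0.08 and under TMM -0.09.

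The region 4244 bp before the start (87423501 to 87424750) had 409, 451, 367 and 425 scaled counts in Tbx5G125R animals, against 221, 288, 270 and 205 in Control animals. It had the second highest mean scaled count of the 19 regions, and the groups did not overlap, at a log2 fold change of 0.76 ± 0.11. At 10244 bp before the start (87418001 to 87418750) the Tbx5G125R animals lay between 252 and 350 and the Control animals between 149 and 204 (0.71 ± 0.13). At 8989 bp after the span (87443501 to 87444250) they lay between 178 and 209 in Tbx5G125R and between 109 and 123 in Control (0.72 ± 0.12). These 4 log2 fold changes spanned 0.61 to 0.76 on the scale used here. Their span was -0.08 to 0.07 on the table scale and -0.09 to 0.06 under TMM.

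The lower region lay 5989 bp after the span (87440501 to 87441000). It had 42.1, 40.4, 18.8 and 35.7 scaled counts in Tbx5G125R animals, against 57.5, 69.7, 59.2 and 69.7 in Control animals. Every Tbx5G125R animal was below every Control animal, Tbx5G125R 3 furthest. Means were 34.3 ± 10.7 in Tbx5G125R and 64.0 ± 6.60 in Control (SD, n = 4 each), a log2 fold change of -0.89 ± 0.24. Without Tbx5G125R 3 it was -0.68, and with all animals on the table scale -1.58.

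For each 100 reads in the 4 higher Bmp10 regions, the lower region had 3.29, 3.19, 1.84 and 3.12 reads in Tbx5G125R animals, against 8.84, 8.80, 7.69 and 9.98 reads in Control animals. The groups did not overlap in this ratio, which is free of any scaling. The separate libraries of Control 1 had 6.73 and 10.6 reads and those of Control 3 had 7.32 and 8.05 reads per 100, all above the highest Tbx5G125R animal. The regions of this ratio were picked by their direction in these same animals, so the separation restates that choice in unscaled reads.

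**Figure D4:**
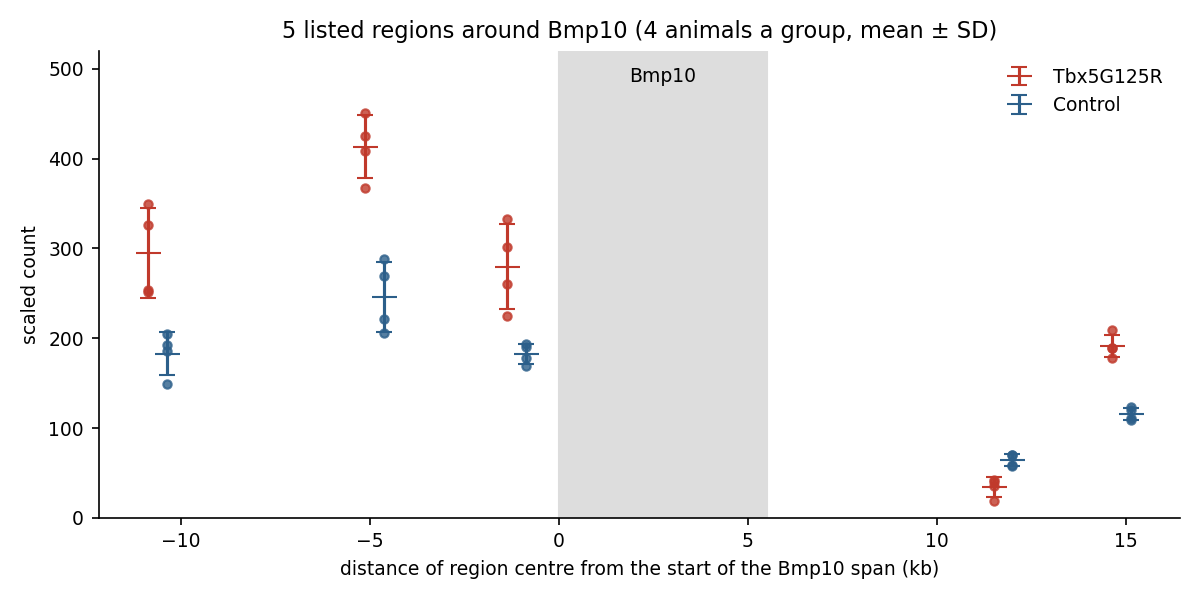
Scaled counts of each animal (points) with mean ± SD (bars, n = 4 a group) at the 5 regions around Bmp10, placed by the distance of their centre from the start of the gene in kb, with the gene's span in grey and the groups drawn slightly apart. The Tbx5G125R animals lie above the Control animals at 4 regions and below them at the region 5989 bp after the span, where the means are 34.3 in Tbx5G125R and 64.0 in Control.

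Smad1, the receptor SMAD that carries the BMP signal to the nucleus, had 2 regions, both far upstream (chromosome 8, gene on the minus strand). The farther one, 93573 bp before the span (79493001 to 79494000), had 46.0, 85.6, 49.8 and 63.8 scaled counts in Tbx5G125R animals, against 22.1, 27.9, 21.9 and 29.2 in Control animals. All Tbx5G125R animals were above all Control animals, and Tbx5G125R 2 was the highest, which gave this region a coefficient of variation of 29.2% in Tbx5G125R and 15.0% in Control. The log2 fold change was 1.34 ± 0.26. At 54073 bp before the span (79453501 to 79454250) Tbx5G125R animals lay between 148 and 228 and Control animals between 91.3 and 138, a log2 fold change of 0.70 ± 0.15, which was -0.0058 under TMM.

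Smad6, an inhibitory SMAD that mainly restrains BMP signalling, had 4 regions on chromosome 9 (minus strand), all higher in Tbx5G125R. The region over the start, which holds the promoter shown (64021751 to 64023500), had 402, 382, 388 and 413 scaled counts in Tbx5G125R animals, against 223, 241, 252 and 295 in Control animals. The Tbx5G125R animals lay within a narrow band above all Control animals, with a log2 fold change of 0.66 ± 0.10. That is below the table's median change, and on the table scale it was -0.03 and under TMM -0.05. Inside the span, the region 3585 bp from the high end (64017751 to 64018500) had 0.72 ± 0.13 and the region 15175 bp from the low end (63968251 to 63969250) had 0.70 ± 0.10, which was -0.00015 under TMM.

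The fourth Smad6 region lay 63326 bp after the gene (63888751 to 63889750) and had the highest fold of the locus. It had 101, 77.9, 52.6 and 82.1 scaled counts in Tbx5G125R animals, against 34.2, 65.0, 28.0 and 29.2 in Control animals. Control 2 stood above Tbx5G125R 3, so the groups overlapped, and the coefficient of variation in Control, 44.7%, was the highest among the members. The log2 fold change was 1.11 ± 0.25, and 1.35 without Control 2, the animal with the fewest reads.

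Smad7, an inhibitory SMAD that restrains both BMP and TGF-beta signalling, had 2 regions on chromosome 18. The one over the low end of its span (75366751 to 75367750), which also overlapped the noncoding gene Gm20544, had 498, 511, 487 and 482 scaled counts in Tbx5G125R animals, against 287, 237, 322 and 281 in Control animals. This was the highest mean scaled count of the 19 regions. The groups did not overlap, at a log2 fold change of 0.78 ± 0.09, which was 0.09 on the table scale and 0.08 under TMM. The coefficient of variation was 2.60% in Tbx5G125R and 12.4% in Control. The region 23865 bp below the span (75342501 to 75343500) lay between 228 and 266 in Tbx5G125R and between 128 and 169 in Control (0.63 ± 0.12), but had -0.06 on the table scale and -0.07 under TMM.

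Animals of 1 group varied by a median of 14.5% in Tbx5G125R (1.88% to 31.1%) and 12.4% in Control (5.70% to 44.7%) at the member regions, against 12.5% in Tbx5G125R and 14.4% in Control over all listed regions. The variation was higher in Tbx5G125R than in Control at 10 of 19 regions (52.6%), against 41.0% of all listed regions. Of the 19 regions, 8 overlapped a gene span (42.1%, against 70.2% of the table) and 4 covered an end of the span (21.1%, against 26.5%).

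Bmp2 and Bmp4 had no listed region near them. The nearest lay 317909 bp from Bmp2 and 315525 bp from Bmp4. Bmp5 had 2 listed regions within 100 kb, both higher, which the rule gave to Scg3. Over the annotation, 5698 of 21900 protein-coding genes had a listed region, and since the table holds only called regions, its silence on these 3 genes does not say whether they were accessible. Just inside the distance limit lay the Smad1 region at 93573 bp, with means of 61.3 in Tbx5G125R and 25.2 in Control (1.34). The only region outside the limit with a member as nearest gene lay well beyond it, 315525 bp from Bmp4, with 13.5 in Tbx5G125R and 31.1 in Control (-1.28).

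The wider pathway was followed with lists of 72 other genes. Listed regions lay at 27 of them, beside 5698 of 21900 protein-coding genes in all. Of these 46 regions, 42 were higher (88.4% of all listed regions) and 4 lower in Tbx5G125R (11.6%). At 43 the animals did not overlap (92.7%), and 19 lay above the table's median change (50%). The median log2 fold change of the 46 regions was 0.67, against 0.72 over all listed regions and 0.72 over the members. The counts by class given next stand beside these same shares of all genes and all listed regions.

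Among 17 genes listed as other ligands 1 had a region, Inha, the alpha subunit of inhibin (0.95). That list also held Bmp1, which encodes a protease. Of 9 receptor genes 5 had regions, 7 higher and 0 lower. The most changed were inside Bmpr1b, a type I BMP receptor, with 81.5, 104, 130 and 97.6 scaled counts in Tbx5G125R against 36.0, 37.2, 47.4 and 58.3 in Control (1.21 ± 0.20), and inside Acvr2b, a type II activin receptor (0.82 ± 0.15). No Tbx5G125R animal overlapped a Control animal at the 7 receptor regions, as at 92.7% of all listed regions.

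Of 5 other SMAD genes 2 had regions, 6 higher and 1 lower. At Smad3, a receptor SMAD of the TGF-beta branch, the most changed region had a log2 fold change of 1.20 ± 0.25. Smad2, of the same branch, had the lower one, 42753 bp from its span (-0.60 ± 0.17), where the groups overlapped. The antagonists and modulators outside the cell had regions at 5 of 18 genes, 4 higher and 2 lower. Bmper, a secreted BMP-binding regulator, had 1.50 ± 0.16, and Fstl3, which binds activin, had 0.96 ± 0.10. The lower regions lay near Fst, the activin antagonist follistatin (-0.96 ± 0.20), and inside Tll1, a protease that cleaves the BMP antagonist chordin (-0.92 ± 0.29), and the groups overlapped at both.

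Membrane cofactors had regions at 5 of 6 genes, 8 higher and 0 lower, where 88.4% of all listed regions were higher. They were led by Tgfbr3, the coreceptor betaglycan (0.97 ± 0.25), and Rgmb, a BMP coreceptor (0.89 ± 0.26). The SMAD ubiquitin ligases and phosphatase had regions at 4 of 4 genes, 7 higher and 0 lower. Nedd4l, a ubiquitin ligase of SMADs, averaged 148 ± 23.6 scaled counts in Tbx5G125R and 47.2 ± 10.1 in Control (SD, n = 4 each) at its most changed region (1.60 ± 0.18), and Smurf1, a ligase of Smad1, had 0.70 ± 0.14. The groups did not overlap at either gene's region, as at 92.7% of all listed regions.

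Transcriptional targets of the pathway had regions at 3 of 8 genes, 7 higher and 0 lower, led by Id4 (1.09 ± 0.16) and Atoh8 (0.85 ± 0.18). TGF-beta ligands and receptors had regions at 2 of 5 genes, 2 higher and 1 lower. Tgfb2 had a higher region inside its span (0.94 ± 0.22) and a lower one 12037 bp away (-0.93 ± 0.24), and Tgfbr1 had a higher one (0.57 ± 0.09). The genes of the lower regions, Smad2, Fst, Tll1 and Tgfb2, were singled out after their values were seen.

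**Figure D5:**
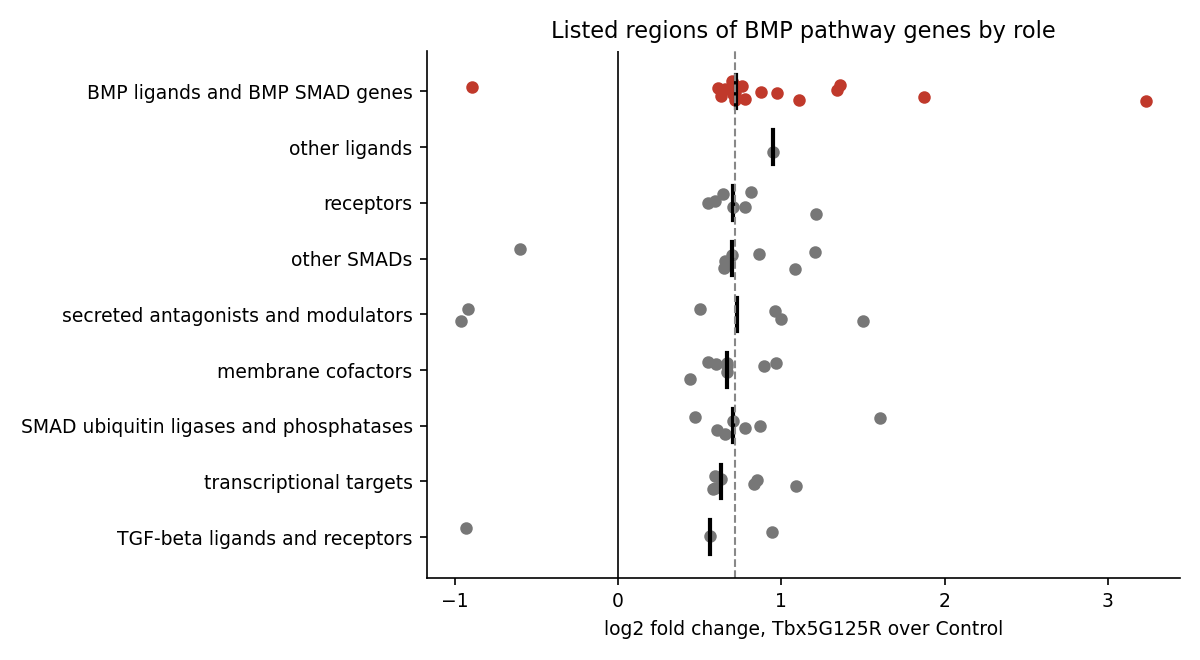
Log2 fold change (Tbx5G125R over Control, horizontal axis) of each listed region at the BMP ligand and SMAD genes (top, red) and at 8 other classes of pathway genes (grey), with the class median as a black bar and the median of all listed regions as a dashed line at 0.72. Lower regions appear in 4 classes, and the widest range, -0.89 to 3.23, is that of the ligand and SMAD genes.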

How the data were processed

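ATAC-seq reads of PCM1-sorted atrial nuclei were processed by the authors. BWA, bedtools, DESeq2 and mm10 appear in the submitters' processing notes without versions. Whether reads were shifted for the transposase, duplicates removed or mitochondrial reads dropped was not given in the sources used here. The authors deposited 1 table of called regions made of 500-bp bins, with raw read counts per library. In 4 libraries a count of 0 was written as 0.1 by the authors, so that these deposited columns are estimated counts in form only, and such values were rounded to 0. The table also holds the authors' log2 fold change, adjusted p-values and geometric means of each group. The deposited log2 fold change (Control over Tbx5G125R) served only to set a scale, and the other 2 kinds of column were not used.

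The 2 libraries of a Control animal were summed: their chi-square per degree of freedom was 1.62 to 1.67, against 2.01 to 2.86 between Control animals. Libraries were scaled within a genotype by median ratios. The genotypes were joined by an offset fitted to the authors' deposited log2 fold changes. The model also held a dispersion and a term that damps noisy fold changes, and as a whole it explained 99.6% of their variance. The offset was 0.30 on the log2 scale (1.23-fold, 0.27 from higher and 0.47 from lower regions alone). The fold changes reported here were not damped in this way. Values on this scale are thus not independent of the authors' calls.

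Fold changes came from edgeR 4.0.16 (R 4.3.3, quasi-likelihood fit, 4 against 4 animals, no covariate, SE from the test statistic). The fit was tested on simulated counts with known folds in both directions and known scale factors. That test did not touch the scale between genotypes. Calls at the table's median scaling used an adjusted p of 0.05 over 10010 regions. DESeq2 1.42.0 and limma 3.58.1 were alternatives. Genes and promoters came from RefSeq (GRCm38.p6), coordinates are 1-based, and 6 of 10 members matched a promoter.

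Members and lists were chosen with earlier results of these data known. Regions named with a value in each animal were the most changed of each gene, all lower ones, those over an end of a span and the 2 of highest mean scaled count. Of the other pathway genes the 2 most changed per class were named. Tested alternatives were the tool, the pseudocount (0.1, 1 and 5), the scaling, a filter on low counts, the libraries, the replicate number as a block, single animals left out and the rule of assignment.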

Additional observations from a re-analysis of the deposited data

Results flagged for a closer look

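At the Smad6 region 63326 bp after the gene (chromosome 9, 63888751 to 63889750), Control 2 had 65.0 scaled counts, apart from 28.0 to 34.2 in the other Control animals. The gap was 0.832 of the group's range, just over Dixon's limit for 4 samples. It was the only one of 38 groups of 4 animals (19 regions in 2 genotypes) past that limit, and chance passes about 1 in 20 groups. Control 2 had the fewest reads of the 8 animals, and the part of depth in this value was not tested.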

How the results depend on the processing

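The scale between genotypes and the rule of assignment both moved results. On the table scale the median log2 fold change was 0.032 over the members and 0.027 over all listed regions, 4 member regions were lower and the animals did not overlap at 4. Of the 19 regions, 3 changed sign: 744 bp before Bmp10 (-0.076), over the start of Smad6 (-0.033) and 23865 bp from Smad7 (-0.056). The other 16 moved without a change of sign. Among them were the Bmp6 far end (2.54), Bmp3 (1.18), Bmp7 (0.29) and the lower Bmp10 region (-1.58). With TMM the median was 0.018 over the members and 0.013 over all, 6 regions were lower and 4 had no overlap, and 5 changed sign: 744 bp before Bmp10 (-0.090), 54073 bp before Smad1 (-0.0058), 15175 bp inside Smad6 (-0.00015), over the start of Smad6 (-0.047) and 23865 bp from Smad7 (-0.071). Without scaling both medians were 1.06. These scalings place the typical listed region differently by construction. Of all listed regions 54.7% were higher on the table scale and 52.3% under TMM, and their share free of overlap was not taken on these 2 scales. A limit of 10 kb left 11 higher regions, 1 lower and 7 above the table's median change. Overlap with a span alone left 8 higher, 0 lower and 5 above the median change. Letting noncoding genes claim regions left 12 higher, 1 lower and 7 above the median change. Leaving out 1 animal gave a median of 0.71 to 0.79, 9 to 14 regions above the median change, 18 to 19 with no overlap, and 18 higher and 1 lower each time. The counts of 18 and 1 also stood under the tools, pseudocounts and single libraries, as did those of the whole table, whose regions had already been called, so these counts had little room to move. The filter removed no region. Overlap of animals was not recomputed for the tools, pseudocounts, filter and block, which use the same scaled counts. Deviations of same-numbered animals correlated at 0.17, -0.0020, 0.07 and 0.03, and those of differently numbered animals at -0.13 to 0.11. The largest was that of replicate 1, and pairing by replicate number was not tested. With the replicate number as a block the median was 0.74 and 10 regions lay above the median change. Control 2 and Control 4 had the fewest reads, which limits the lowest values.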
